A study of Mus musculus with 6 samples.

Results

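The genes described here copy DNA in S phase and supply its building blocks. They were taken as 48 listed mouse gene symbols out of the 35999 symbols in the expression table, and each symbol matched 1 row. The list was sorted into 7 roles: licensing of replication origins (5 genes), the replicative helicase (12), polymerases and primase (8), the sliding clamp with its loader, single-strand binding protein and flap processing (10), nucleotide supply (5), chromatin assembly with DNA methylation (4), and cyclin E with E2F (4). The rule uses symbols and roles and no measured value, but the genes were chosen with earlier results of these data known. Counts and medians set beside those of all tested genes are therefore descriptions, and the list as a set was not tested. RNA sequencing was done on primary hepatic stellate cells, liver pericytes that store vitamin A, at days 1, 4 and 7 (6 libraries, 2 for each day). The titles name stellate cells, the cell type field names liver cells without a type, and the labels give no genotype, strain, age or treatment. The event that starts the count of days, the steps of the isolation and the independence of the 2 libraries of a day are not stated, so a p-value here weighs a change against a spread that may be technical. Replicate numbers are 2 and 3 for day 1 and 1 and 2 for both later days, and serve as names.

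Replication starts at origins that are licensed in G1, when the origin recognition complex (Orc1 to Orc6), Cdc6 and Cdt1 load the ring of Mcm2 to Mcm7 onto DNA, and geminin (Gmnn) blocks a repeat of that step once S phase has begun. Cdc45 and the GINS complex turn the ring into a moving helicase, primase and the polymerases copy the strands, and the clamp Pcna holds the polymerases on DNA. Many of these genes are known targets of E2F transcription factors, which are released when cyclins D and E act on the retinoblastoma protein. Hepatic stellate cells are quiescent in healthy liver and enter the cell cycle when they are activated in injury or on plastic.

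The deposited values are TPM (transcript abundance per fixed library total), a length-scaled share of each library's total, so levels can be set beside each other between genes and a sum can be formed over genes. TPM keeps no record of depth, which is therefore unknown, and no counting error can be given. Each library held 19854 to 21604 symbols above 0. Log2 values of libraries of the same day correlated across genes at r = 0.970 on day 1, 0.986 on day 4 and 0.986 on day 7, while day 4 and day 1 libraries correlated at 0.880 to 0.919. The day 1 libraries stood apart in another respect. A set of 12 predicted gene models that share sequence with the satellite-like model Gm10800 took 0.0594% to 0.0913% of all TPM in the libraries of days 4 and 7, against 17.4% and 26.2% in those of day 1. Because TPM is a share, this lowers every other gene in the day 1 libraries, so the counts of calls and the summed TPM that compare day 4 with day 1, over the replication genes and over the lists set beside them, are also given with the shares rebuilt without these models. So is the change of each gene of those lists that is described with a change and whose call on day 4 differed after rebuilding.

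The labelled cell type was checked against marker genes. Stellate cell markers, 16 genes such as Lrat, Des, Reln, Dcn, Hgf, Ecm1 and Colec11, summed to 290.0 and 277.0 TPM on day 1, 907 and 923 TPM on day 4, and 898 and 877 TPM on day 7. Dcn alone made up 132 and 87.8 TPM on day 1, 611 and 628 TPM on day 4, and 659 and 607 TPM on day 7. The sum thus mostly follows Dcn. Ecm1 overlapped between days 4 and 1, and Colec11 was lower in both day 4 libraries. Macrophage markers, 16 genes such as Clec4f, Lyz2 and Csf1r, summed to 14054.5 and 11159.6 TPM on day 1, 27502 and 27448 TPM on day 4, and 26417 and 28754 TPM on day 7. RNA of macrophage markers was thus far above that of stellate markers in each of the 6 libraries, and both sums were higher in all libraries of days 4 and 7 than in those of day 1. With the shares rebuilt the day 1 sums were 351 and 375 TPM for stellate markers and 17008 and 15115 TPM for macrophage markers, still below every later library. The libraries are bulk RNA, so more cells of a type and more RNA per cell cannot be told apart for any gene below, and the replication genes cannot be assigned to a cell type.

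Promoters were examined for the words that E2F factors are known to bind. RefSeq promoter windows on GRCm38.p6, running from 250 bases before to 50 bases after each annotated start, were found for 39 of the 48 genes, as 48 windows. No entry was matched for Prim2, Gins2, Pole, Ccne2, Gins4, Gmnn, Rfc2, Mcm4 or Gins1. The E2F words searched on both strands were TTCCCGC as one form, TTCGCGC as another, TTGGCGC as the next and TTGCCGC as the last, and they can overlap each other. The word CCAAT was searched in the same way. The windows below belong to the 3 genes with the largest and the 2 with the smallest day 4 over day 1 change among those with an entry, and to Mcm6, added after its number of words was seen. Capitals mark the words.
Rrm2, chr12:24708004-24708303, plus strand: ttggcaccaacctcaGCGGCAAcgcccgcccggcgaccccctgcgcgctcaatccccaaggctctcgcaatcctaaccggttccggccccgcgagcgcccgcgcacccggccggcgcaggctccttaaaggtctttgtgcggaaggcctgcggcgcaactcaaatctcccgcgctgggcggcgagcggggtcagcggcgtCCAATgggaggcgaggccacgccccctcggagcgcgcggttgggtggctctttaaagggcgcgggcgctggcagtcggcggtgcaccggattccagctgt
Uhrf1, first start, chr17:56303087-56303386, plus strand: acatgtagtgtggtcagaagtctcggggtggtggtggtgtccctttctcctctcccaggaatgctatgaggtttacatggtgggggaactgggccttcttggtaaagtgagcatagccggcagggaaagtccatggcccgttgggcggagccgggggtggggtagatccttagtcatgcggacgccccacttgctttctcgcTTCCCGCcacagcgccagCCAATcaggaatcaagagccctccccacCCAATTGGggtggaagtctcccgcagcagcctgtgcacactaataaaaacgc
Uhrf1, second start, chr17:56304063-56304362, plus strand: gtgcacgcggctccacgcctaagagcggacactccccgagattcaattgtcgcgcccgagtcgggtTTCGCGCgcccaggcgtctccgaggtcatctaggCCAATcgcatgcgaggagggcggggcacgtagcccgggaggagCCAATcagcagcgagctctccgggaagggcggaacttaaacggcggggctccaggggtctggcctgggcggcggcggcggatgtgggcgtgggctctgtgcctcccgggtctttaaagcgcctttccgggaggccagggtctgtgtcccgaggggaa
Cdc6, chr11:98907901-98908200, plus strand: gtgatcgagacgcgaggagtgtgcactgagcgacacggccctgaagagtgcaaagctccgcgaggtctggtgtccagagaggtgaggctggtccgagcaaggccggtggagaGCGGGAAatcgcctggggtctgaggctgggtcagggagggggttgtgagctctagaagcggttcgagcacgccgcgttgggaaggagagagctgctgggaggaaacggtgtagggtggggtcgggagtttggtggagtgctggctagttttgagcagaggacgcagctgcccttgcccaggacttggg
Mcm6, chr1:128359656-128359955, minus strand: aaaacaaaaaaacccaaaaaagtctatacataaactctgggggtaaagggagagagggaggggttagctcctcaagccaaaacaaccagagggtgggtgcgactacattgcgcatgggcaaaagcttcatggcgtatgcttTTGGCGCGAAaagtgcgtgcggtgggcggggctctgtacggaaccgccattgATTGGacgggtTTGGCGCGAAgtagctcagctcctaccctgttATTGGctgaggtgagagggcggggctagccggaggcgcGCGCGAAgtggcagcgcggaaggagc
Orc1, chr4:108579204-108579503, plus strand: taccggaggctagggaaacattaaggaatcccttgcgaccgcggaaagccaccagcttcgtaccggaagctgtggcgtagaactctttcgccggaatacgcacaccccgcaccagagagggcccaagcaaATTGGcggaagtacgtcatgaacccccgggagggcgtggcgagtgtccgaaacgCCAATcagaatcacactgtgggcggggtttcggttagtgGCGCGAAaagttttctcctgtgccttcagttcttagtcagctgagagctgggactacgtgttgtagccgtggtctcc
Pola2, chr19:5964157-5964456, minus strand: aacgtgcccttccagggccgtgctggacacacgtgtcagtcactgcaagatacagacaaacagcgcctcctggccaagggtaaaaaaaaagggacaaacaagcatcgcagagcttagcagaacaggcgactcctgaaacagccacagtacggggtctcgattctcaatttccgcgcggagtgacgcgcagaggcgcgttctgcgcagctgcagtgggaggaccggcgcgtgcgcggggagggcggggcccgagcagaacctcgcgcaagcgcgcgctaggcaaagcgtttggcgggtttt

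The Mcm6 window holds 5 E2F words, of which 4 form 2 overlapping pairs (TTGGCGCGAA), together with 2 CCAAT words on the opposite strand. The Rrm2, Cdc6 and Orc1 windows and each Uhrf1 window hold 1 E2F word, and the Pola2 window holds neither kind. Windows follow RefSeq starts, which can lie inside the span of a gene in the GENCODE annotation. The Cdc6 window begins at 98907901, inside a GENCODE span that starts at 98907801. Bases before that start were not searched. In the Orc1 window the E2F word spans −27 to −21 and a CCAAT word spans −66 to −62, counted from the start base as 0. An E2F word was present in 28 of the 48 windows (58.3%), compared with 9.57% of all 32851 RefSeq windows and 13.4% of the 8492 windows whose GC content lay within 5 percentage points of the listed genes' median of 59.2%. Counted per gene, 25 of 39 genes (64.1%) had one in at least 1 window, compared with 10.9% of all genes in the table. At least 2 E2F words were found in 25% of the listed genes' windows and 1.18% of all windows. CCAAT was present in 28 windows (58.3%), compared with 37.4% of all windows, and it was found in all 9 windows of helicase genes. Genes higher on day 4 had an E2F word in 24 of 40 windows, and the genes not higher on day 4 in 4 of 8. These are matches of letters and say nothing of binding, and a window without a match says only that these letters are not in it.

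**Figure D1:**
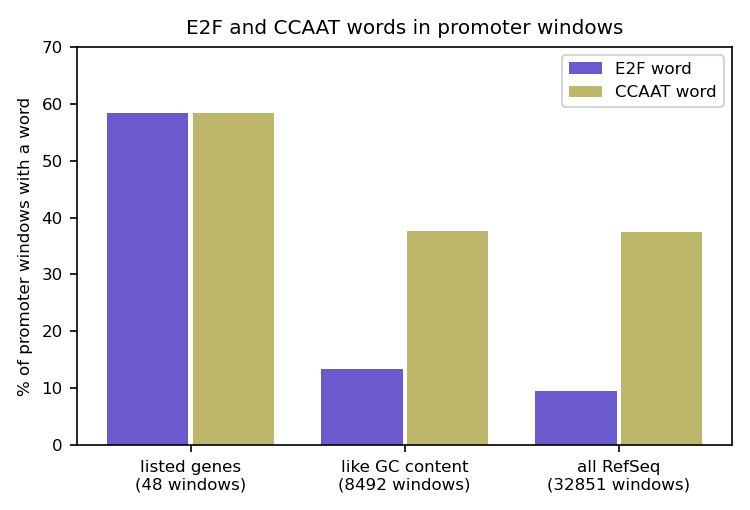
Share of promoter windows (percent, y axis) that hold an E2F word or a CCAAT word, for the 48 windows of the listed genes, the 8492 windows of like GC content and all 32851 RefSeq windows. The E2F bar stands at 58.3% for the listed genes, 13.4% at like GC content and 9.57% for all windows; the CCAAT bars stand at 58.3%, 37.6% and 37.4%.

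On day 4 most of the replication genes were higher than on day 1. In a limma fit across the 14373 genes that reached 1 TPM in 2 or more libraries, on log2(TPM + 1) with Benjamini-Hochberg adjustment over all of them, 41 of the 48 genes rose at an adjusted p under 0.05, where 25.0% of all tested genes did so. Only Pola2 fell, where 11.6% of all tested genes fell (36.6% were called in either direction), and Orc1, Gins3, Rfc1, Pold2, Cdt1 and E2f1 did not pass. The median log2 change was 1.06 over the 48 genes and 0.11 over all tested genes. As a ratio of TPM means as deposited, 28 genes reached at least 2-fold, 15 at least 3-fold and 5 at least 5-fold, and the median ratio was 2.19. The satellite-like models lower the day 1 means and so raise these ratios. The fold counts were not formed on rebuilt shares or over all tested genes. As deposited, both day 4 libraries lay above both day 1 libraries for 45 of the 48 genes, where 43.0% of all tested genes did so, and Orc1 and Gins3 had overlapping days. These separations were not counted on rebuilt shares, which raise the day 1 values, so both figures depend on the satellite-like models. All 48 genes entered the test, although Cdc6 and E2f2, under 1 TPM in both day 1 libraries, did so only through the later days. Summed over the list, TPM was 819 and 731 on day 1, 1568 and 1556 on day 4, and 1612 and 1569 on day 7, or 0.0824% and 0.0738%, 0.158% and 0.157%, and 0.162% and 0.158% of each library's total.

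**Figure D2:**
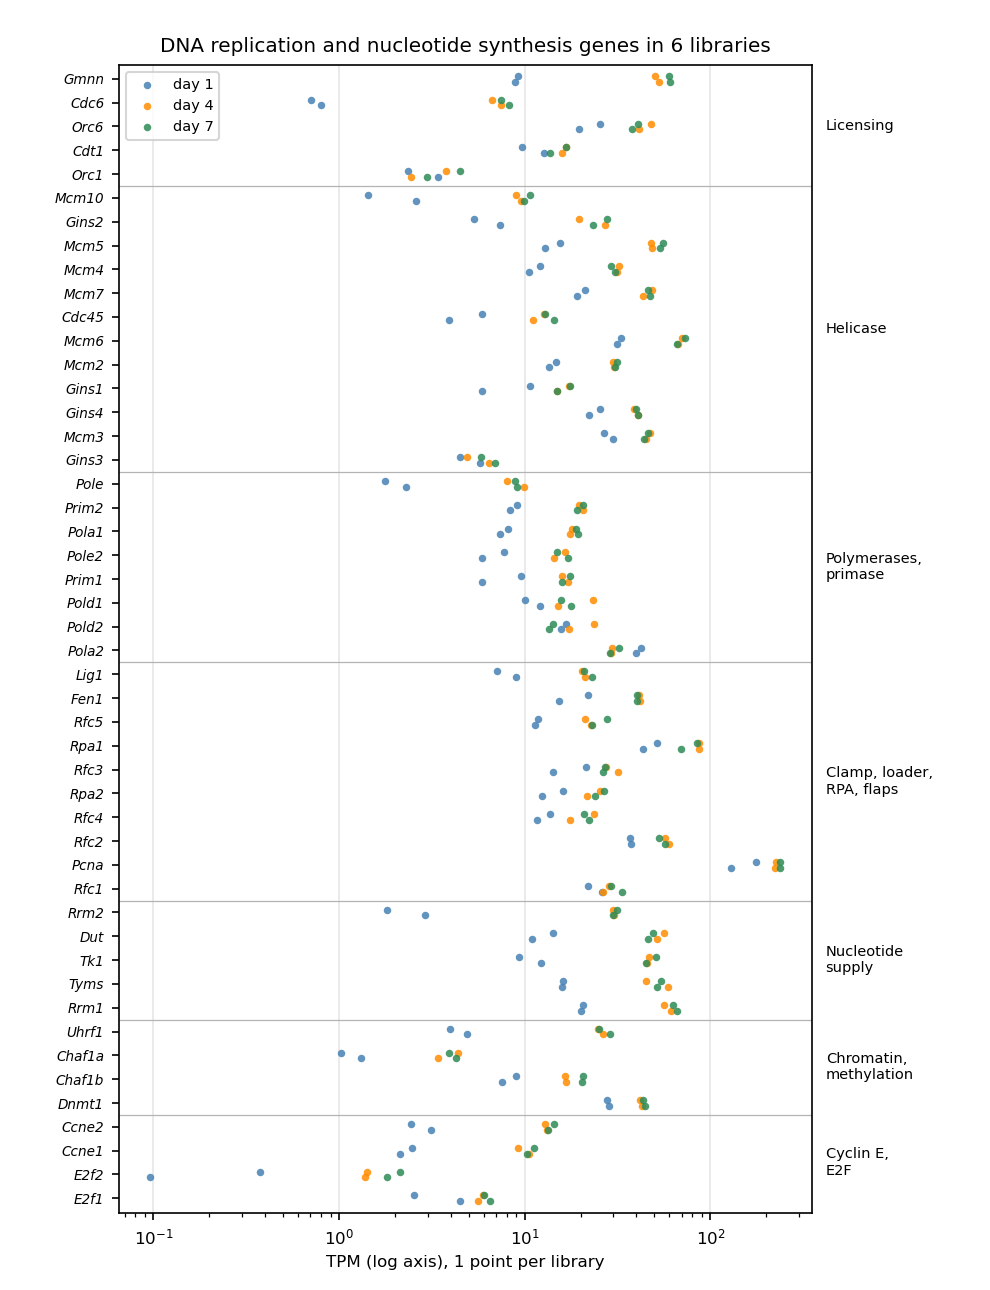
TPM of each listed gene (log x axis) in the 6 libraries, 1 point per library, coloured by day and grouped by role. The day 4 and day 7 points lie together and to the right of the day 1 points for most genes. Pola2 has both day 1 points (42.4 and 39.6 TPM) furthest right, and Orc1 and Gins3 have overlapping points on days 4 and 1.

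With the shares rebuilt without the satellite-like models, 32 genes rose on day 4, where 14.1% of all tested genes did so, and Pola2 fell, where 23.7% did so. Mcm3, Gins1, Pold1, Pcna, Rfc2, Rfc3, Rfc4, Rpa2 and Dnmt1 no longer passed. By role, the rises that passed after rebuilding were 5 of 5 in nucleotide supply, 3 of 5 in licensing, 9 of 12 in the helicase, 5 of 8 among polymerases and primase, 4 of 10 around the clamp, 3 of 4 in chromatin assembly and DNA methylation, and 3 of 4 in cyclin E and E2F. In the same order, the median log2 changes of the roles were then 1.69, 0.62, 0.77, 0.75, 0.38, 0.79 and 1.18, and that of all tested genes was −0.21. The summed TPM of the list became 1569 and 1557 on day 4, against 991 and 990.0 on day 1. This rebuilding moved the median change of all tested genes by −0.32 and that of the 48 genes by −0.30 on the log2 scale, so the distance between the medians was 0.97, compared with 0.95 as deposited. It also moved the share of rises among all calls to 37.4%, compared with 68.3% as deposited and 53.1% after quantile normalization. Without day 4 replicate 1, the median log2 change was 1.03 over the 48 genes and 0.09 over all tested genes. Without day 4 replicate 2, these medians were 1.08 and 0.13. Fewer of the 48 genes, and fewer of all tested genes, passed in both fits. In such a fit the single day 4 library is assumed to vary like the other days. A group of 28 genes rose under each of the 17 alternative settings that tested them (Chaf1a was not tested under the stricter filter), among them Rrm1, Rrm2, Tk1, Tyms, Dut, Gmnn, Cdc6, Uhrf1, Ccne1, Ccne2, Mcm2, Mcm4, Mcm5, Mcm6, Mcm7, Mcm10, Pola1, Pole, Lig1 and Fen1. How many of all tested genes rose under every setting was not counted, so no share stands beside the 28.

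All 5 enzymes of nucleotide supply rose on day 4, with a median log2 change of 2.02, the highest of the 7 roles. Rrm2 (chromosome 12, 24708241 to 24714146, plus strand, GRCm38) encodes the small subunit of ribonucleotide reductase, which turns ribonucleotides into deoxyribonucleotides and is made in S phase. It stood at 1.82 and 2.92 TPM on day 1, 30.0 and 30.2 TPM on day 4, and 31.4 and 30.0 TPM on day 7. Day 4 and day 7 were thus nearly alike. As deposited, every library of both lay more than 10 times above either day 1 library, a multiple that the satellite-like models raise. The log2 change on day 4 was 3.23 (SE 0.18, adjusted p = 9.65e-05), a TPM ratio of 12.7, the largest among the 48 genes. Rrm1, the large subunit, had 20.7 and 19.98 TPM on day 1, 56.0 and 61.4 TPM on day 4, and 63.1 and 65.9 TPM on day 7. Its change was smaller, at 1.48 (SE 0.10, adjusted p = 0.000211), and the days did not overlap.

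Dut, which hydrolyses dUTP so that uracil stays out of DNA, had 14.1 and 10.9 TPM on day 1, 56.5 and 51.8 TPM on day 4, and 49.1 and 45.9 TPM on day 7. The day 4 libraries were the highest and the day 1 libraries far below either later day, and the day 4 change was 2.03 (SE 0.14, adjusted p = 0.000234). Tk1, the S phase thymidine kinase of the salvage pathway, averaged 46.2 ± 0.87 TPM on day 4 and 10.8 ± 2.0 TPM on day 1 (SD, n = 2 each), a log2 change of 2.02. Tyms, which makes dTMP from dUMP, averaged 52.1 ± 10.4 TPM on day 4 and 16.0 ± 0.21 TPM on day 1, a change of 1.63. The Tyms libraries of day 4 differed from each other, at 44.7 and 59.5 TPM, but both lay well above the 16.1 and 15.8 TPM of day 1.

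**Figure D3:**
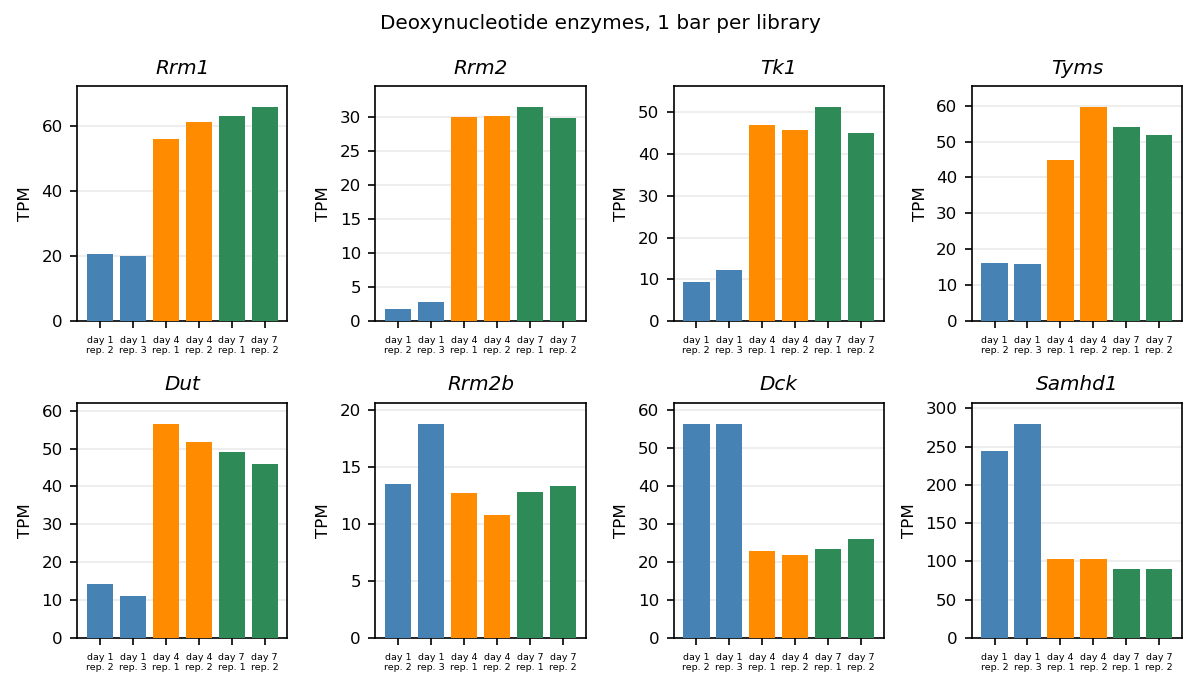
TPM (y axis from 0) of 8 deoxynucleotide enzymes, 1 bar per library, coloured by day. Bars of Rrm1, Rrm2, Tk1, Tyms and Dut are higher on days 4 and 7 than on day 1, those of Dck and Samhd1 are lower, and those of Rrm2b lie between 10.8 and 18.8 TPM.

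Of the 29 other nucleotide enzymes listed for comparison, 10 rose and 5 fell on day 4, with a median log2 change of 0.27, and 14 did not pass. Over all tested genes, 25.0% rose and 11.6% fell, with a median of 0.11. Samhd1, a hydrolase that breaks down deoxynucleoside triphosphates, had 103 and 104 TPM on day 4, against 244 and 279.8 TPM on day 1. Its change of −1.33 (SE 0.11, adjusted p = 0.000485) was the largest of that list, and the days lay far apart. Dck, the deoxycytidine kinase of the salvage pathway, had 22.9 and 21.9 TPM on day 4, against 56.3 and 56.1 TPM on day 1, a change of −1.29 (adjusted p = 0.000401). The other falls were Cad, the multifunctional enzyme that starts pyrimidine synthesis (−1.10), Impdh1 (−0.91) and Adsl (−0.46), and the rises included Ctps, which makes CTP (0.88), and Dtymk, which phosphorylates dTMP (0.56). Rrm2b, the p53-inducible alternative to Rrm2, did not pass (−0.41, adjusted p = 0.123). Rebuilding the shares turned the balance of this list, to 4 rises (13.8%) and 10 falls (34.5%) and a median of −0.07. The balance over all tested genes turned as well, to 14.1% rises and 23.7% falls and a median of −0.21. The Dtymk rise no longer passed (0.22, adjusted p = 0.212), and the Rrm2b fall did (−0.75, adjusted p = 0.0445).

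Among the licensing genes, 3 of 5 rose on day 4, with a median log2 change of 0.96. Gmnn, the inhibitor of licensing, had 9.16 and 8.83 TPM on day 1, 50.2 and 52.9 TPM on day 4, and 60.0 and 60.7 TPM on day 7. Libraries of a day agreed closely and each day lay above the one before. Its day 4 change was 2.40 (SE 0.10, adjusted p = 4.12e-05), the second largest of the 48. Cdc6, the loading ATPase, had 0.705 and 0.801 TPM on day 1, 6.67 and 7.45 TPM on day 4, and 7.49 and 8.26 TPM on day 7. Both day 1 libraries lay below 1 TPM, so Cdc6 entered the test only through the later days, which limits what its call can show. The fitted change of 2.20 (SE 0.16, adjusted p = 0.00025) on log2(TPM + 1) understates the TPM ratio of 9.37.

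Orc6, the smallest origin recognition subunit, had 47.9 and 41.3 TPM on day 4, against 25.6 and 19.5 TPM on day 1, and rose by 0.96 (adjusted p = 0.00572). Cdt1, which loads the Mcm ring together with Cdc6 and is bound by geminin, had 16.8 and 15.9 TPM on day 4, against 9.64 and 12.7 TPM on day 1. As deposited the days did not overlap, but the change of 0.52 missed the threshold (adjusted p = 0.0575), and Cdt1 was not called with the shares rebuilt either. The change was 0.70 without day 1 replicate 3, the higher day 1 library for Cdt1. Satellite-like models took 26.2% of TPM in that library, which lowers its Cdt1 value, and the separation was not examined on rebuilt shares. Orc1, the largest origin recognition subunit, had 3.78 and 2.43 TPM on day 4, against 2.35 and 3.42 TPM on day 1. The days overlapped (0.07, SE 0.27, adjusted p = 0.842), and the sign turned with the shares rebuilt (−0.20) and after quantile normalization (−0.10).

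Of the 12 helicase genes, 11 rose on day 4, with a median log2 change of 1.10. The 6 subunits of the Mcm ring all rose, by 1.70 for Mcm5, 1.41 for Mcm4, 1.15 for Mcm7, 1.07 for Mcm6, 1.04 for Mcm2 and 0.69 for Mcm3. Mcm6, the most abundant, had 33.0 and 31.4 TPM on day 1, 70.2 and 67.1 TPM on day 4, and 73.2 and 66.0 TPM on day 7. Its day 4 and day 7 libraries overlapped, and all lay far above both day 1 libraries. Mcm5 had 15.6 and 12.9 TPM on day 1, 47.7 and 48.8 TPM on day 4, and 55.8 and 53.5 TPM on day 7. It was among the lower subunits on day 1 and next below Mcm6 on day 7. The highest of the 6 subunits exceeded the lowest by 2.73 and 2.97 times on day 1, 2.34 and 2.21 times on day 4, and 2.51 and 2.17 times on day 7, so subunits that work in equal numbers in the ring differed by less than 3 times in TPM in every library. The call on Mcm3 was lost without day 4 replicate 1 (0.65, adjusted p = 0.0517).

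Mcm10, which acts when the helicase is switched on, had 1.44 and 2.59 TPM on day 1, 8.98 and 9.54 TPM on day 4, and 10.6 and 9.97 TPM on day 7. It had the largest change of the helicase genes, 1.79 (SE 0.21, adjusted p = 0.00163), from a low level. Cdc45, a partner of the moving helicase, had 12.7 and 11.1 TPM on day 4, against 5.91 and 3.92 TPM on day 1, a change of 1.14 (adjusted p = 0.00714) that was lost without day 4 replicate 1 (1.05, adjusted p = 0.053). The 4 GINS subunits, which form a complex with 1 copy of each, moved unequally. Gins2 had 5.36 and 7.33 TPM on day 1, 19.7 and 27.0 TPM on day 4, and 27.7 and 23.2 TPM on day 7. Its change was 1.72 (SE 0.21, adjusted p = 0.00188). Gins1 rose by 0.92 (adjusted p = 0.0354), a call lost without day 4 replicate 1 (adjusted p = 0.15), day 4 replicate 2 (0.104) or either day 7 library (0.0712 each), and Gins4 rose by 0.72 (adjusted p = 0.00473), lost without day 4 replicate 2 (adjusted p = 0.0517).

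Gins3 had 4.90 and 6.44 TPM on day 4, against 4.46 and 5.75 TPM on day 1. The days overlapped, the change was 0.13 (adjusted p = 0.637), and its sign turned with the shares rebuilt (−0.18) and after quantile normalization (−0.09). The ratio of Gins2 to Gins3 was 1.20 and 1.28 on day 1, 4.01 and 4.19 on day 4, and 4.77 and 3.37 on day 7. It was near 1 only on day 1. Gins2 shares 67.3% of its exon bases with Gse1 on the opposite strand, and the use of strand in the quantification is not given in the sources used here, so its level is uncertain. Gse1 had 6.23 and 4.68 TPM on day 4, against 7.71 and 15.0 TPM on day 1, the opposite order to Gins2.

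Among polymerase and primase genes, 6 of 8 rose on day 4, Pola2 fell and Pold2 did not pass, with a median log2 change of 1.07. Pole, the catalytic subunit of the leading-strand polymerase, had 1.76 and 2.30 TPM on day 1, 8.07 and 9.87 TPM on day 4, and 8.89 and 9.08 TPM on day 7. Its change of 1.72 (SE 0.17, adjusted p = 0.000899) was the largest of this role. Prim2, the large primase subunit, had 9.12 and 8.35 TPM on day 1, 19.7 and 20.7 TPM on day 4, and 20.7 and 19.1 TPM on day 7. It rose by 1.12 (adjusted p = 0.00115), with the later days overlapping. Pola1, the catalytic subunit of the priming polymerase, rose by 1.10, Pole2 by 1.09, and Prim1, the catalytic primase subunit, by 1.04. The Prim1 call was lost without day 4 replicate 1 (adjusted p = 0.0589) or replicate 2 (adjusted p = 0.0794).

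Pola2 (chromosome 19, 5940542 to 5964202, minus strand), the accessory subunit of the priming polymerase, went the other way. It had 42.4 and 39.6 TPM on day 1, 29.5 and 29.0 TPM on day 4, and 32.0 and 28.6 TPM on day 7, and was the most abundant gene of its role. Both day 1 libraries lay above all 4 later ones. The change was −0.47 (SE 0.11, adjusted p = 0.019), and it was lost without day 4 replicate 1 (−0.48, adjusted p = 0.107) or day 4 replicate 2 (−0.46, adjusted p = 0.124). The ratio of Pola2 to its partner Pola1, 2 subunits that act as 1 complex with primase, was 5.23 and 5.36 on day 1, 1.64 and 1.66 on day 4, and 1.69 and 1.48 on day 7. A ratio within a library does not depend on the library's total, so rebuilding the shares leaves it as it is.

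Of the lagging-strand polymerase, Pold1, the catalytic subunit, had 23.2 and 15.1 TPM on day 4, against 10.1 and 12.1 TPM on day 1. The day 4 libraries differed by more than the distance of the lower one from day 1, and the rise of 0.71 (adjusted p = 0.0458) kept its call in 4 of the 17 alternatives and lost it, among others, in the fits without either day 1 library (adjusted p = 0.101 without replicate 2 and 0.0513 without replicate 3), without day 4 replicate 1 (0.42, adjusted p = 0.206) or without either day 7 library (adjusted p = 0.0876 and 0.0882). Pold2, its accessory subunit, had 16.7 and 15.6 TPM on day 1, 23.7 and 17.4 TPM on day 4, and 14.2 and 13.5 TPM on day 7. Its day 4 change was 0.31 (adjusted p = 0.184) and became −0.02 with the shares rebuilt.

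The clamp, its loader, the single-strand binding protein and the flap enzymes included 9 rises among 10 genes as deposited, with smaller changes and a median of 0.71. With the shares rebuilt, 4 of the 10 rose, with a median of 0.38, where 14.1% of all tested genes rose, with a median of −0.21. Pcna (chromosome 2, 132249162 to 132253314, minus strand), the sliding clamp, was the most abundant of the 48 genes, at 175 and 128 TPM on day 1, 226 and 222 TPM on day 4, and 238 and 236 TPM on day 7. The later libraries agreed closely and the day 1 libraries did not. The change was 0.57 (SE 0.16, adjusted p = 0.0375). That call was lost with the shares rebuilt (0.22, adjusted p = 0.171), without either day 4 library (adjusted p = 0.168 without replicate 1 and 0.16 without replicate 2) and without either day 7 library (0.0864 and 0.0866). As a share of the list's summed TPM, Pcna made up 21.4% and 17.6% on day 1, 14.4% and 14.2% on day 4, and 14.8% and 15.0% on day 7. The pseudogenes Pcna-ps1 and Pcna-ps2 reached at most 0.989 TPM.

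Lig1, the ligase that joins Okazaki fragments, had 7.07 and 8.98 TPM on day 1, 20.5 and 21.2 TPM on day 4, and 20.9 and 23.1 TPM on day 7. It had the largest change of this role, 1.28 (SE 0.15, adjusted p = 0.00144), and days 4 and 1 did not overlap. Fen1, the nuclease that trims their flaps, had 22.0 and 15.3 TPM on day 1, 41.3 and 42.0 TPM on day 4, and 40.3 and 40.1 TPM on day 7, and rose by 1.14 (SE 0.17, adjusted p = 0.00424). An antisense model, Gm10143, covers 78.8% of its exon bases, so that part of its value is uncertain without strand. The ratio of Pcna to Fen1, which docks on the clamp, was 7.96 and 8.38 on day 1, 5.48 and 5.28 on day 4, and 5.91 and 5.89 on day 7.

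The single-strand binding subunits Rpa1 and Rpa2 rose by 0.86 and 0.70, and the Rpa2 call was lost without day 4 replicate 1 (adjusted p = 0.117) or replicate 2 (adjusted p = 0.061). Among the clamp loader subunits, Rfc5 rose by 0.87, Rfc3 by 0.73, Rfc4 by 0.65 and Rfc2 by 0.64. Rfc1, the large subunit found only in this form of the loader, had 28.6 and 26.5 TPM on day 4, against 22.0 and 26.0 TPM on day 1, and did not pass (0.20, adjusted p = 0.282), with its sign turned when the shares were rebuilt (−0.15). The Rfc2 call was lost without day 4 replicate 2 (adjusted p = 0.058). Rfc3 was lost without either day 4 library (adjusted p = 0.085 without replicate 1 and 0.156 without replicate 2) or either day 7 library (0.0684 and 0.0685). Rfc4 was lost without day 1 replicate 3 (0.0739), day 4 replicate 1 (0.159) or either day 7 library (0.0668 and 0.0673). Rfc5 alone of the loader genes rose in all 17 alternatives.

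Chromatin assembly and DNA methylation genes all rose on day 4, with a median log2 change of 1.05. Uhrf1, which reads hemimethylated DNA behind the fork and brings Dnmt1 to it, had 3.97 and 4.87 TPM on day 1, 24.7 and 26.4 TPM on day 4, and 25.1 and 28.7 TPM on day 7. As deposited, every later library lay more than 5 times above either day 1 library, a multiple that the satellite-like models raise. The change was 2.30 (SE 0.14, adjusted p = 0.000152). Dnmt1, the maintenance DNA methyltransferase, had 27.8 and 28.5 TPM on day 1, 42.0 and 42.6 TPM on day 4, and 43.5 and 44.7 TPM on day 7. Its change was 0.57 (SE 0.09, adjusted p = 0.00604) and was lost with the shares rebuilt (0.23, adjusted p = 0.137) and without day 4 replicate 1 (adjusted p = 0.0576) or replicate 2 (adjusted p = 0.0656). The ratio of Uhrf1 to Dnmt1 was 0.143 and 0.171 on day 1, 0.587 and 0.619 on day 4, and 0.576 and 0.642 on day 7.

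Chaf1a, the large subunit of chromatin assembly factor 1, which places histones on new DNA, had 1.02 and 1.32 TPM on day 1, 4.35 and 3.43 TPM on day 4, and 3.93 and 4.27 TPM on day 7. It rose by 1.17 (adjusted p = 0.00533), but 52.5% of its exon bases overlap Ubxn6 on the opposite strand, which stood at 49.5 and 43.5 TPM on day 4 and 47.0 and 32.7 TPM on day 1, so its low level is uncertain. Chaf1b, the middle subunit, rose by 0.93 (adjusted p = 0.00314), with 16.5 and 16.6 TPM on day 4, against 8.99 and 7.53 TPM on day 1.

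Cyclin E and E2F genes had the lowest summed TPM of the roles, and 3 of 4 rose, with a median log2 change of 1.34. Ccne2 had 2.45 and 3.12 TPM on day 1, 12.8 and 13.2 TPM on day 4, and 14.4 and 13.4 TPM on day 7. Ccne1 had 2.47 and 2.13 TPM on day 1, 9.20 and 10.5 TPM on day 4, and 11.2 and 10.3 TPM on day 7. The 2 cyclins, which drive entry into S phase with Cdk2, were at like levels on each day. Ccne2 rose by 1.89 (SE 0.15, adjusted p = 0.000345) and Ccne1 by 1.72 (SE 0.15, adjusted p = 0.000535). E2f2, an activating E2F, had 1.42 and 1.38 TPM on day 4, against 0.373 and 0.0962 TPM on day 1. E2f2 entered the test only through the later days, where it is higher, which limits what its call can show. It rose by 0.97 (adjusted p = 0.0179), and the call was not kept when day 1 replicate 3 or either day 4 library was left out. E2f1, another activating E2F, had 5.97 and 5.58 TPM on day 4, against 2.52 and 4.48 TPM on day 1. As deposited the days did not overlap, but the change of 0.63 missed the threshold (adjusted p = 0.0784), and E2f1 was not called with the shares rebuilt either. The change was 0.94 without day 1 replicate 3, the higher day 1 library for E2f1. Satellite-like models took 26.2% of TPM in that library, which lowers its E2f1 value, and the separation was not examined on rebuilt shares.

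**Figure D4:**
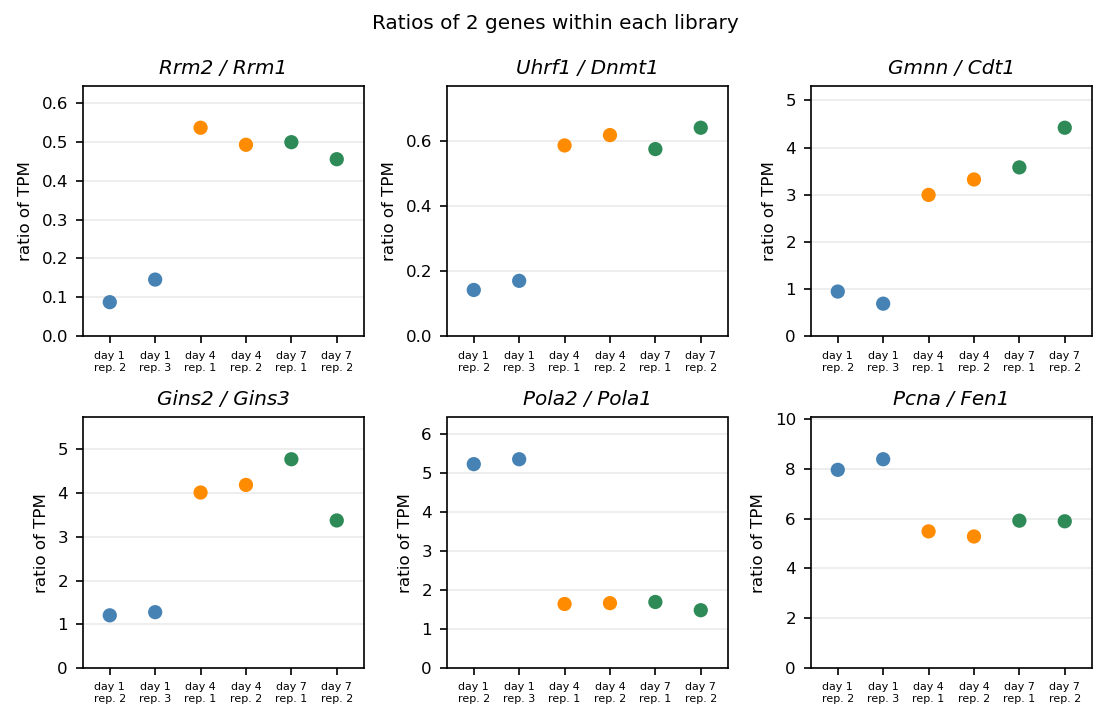
Ratio of TPM of 2 genes within each library (y axis from 0), 1 point per library, for Rrm2 over Rrm1, Uhrf1 over Dnmt1, Gmnn over Cdt1, Gins2 over Gins3, Pola2 over Pola1 and Pcna over Fen1. The first 4 ratios are higher and the last 2 lower in every library of days 4 and 7 than in both day 1 libraries.

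Ratios of other pairs within a library are given without a test. The ratio of Rrm2 to Rrm1, which form 1 enzyme, was 0.0879 and 0.146 on day 1, 0.536 and 0.492 on day 4, and 0.498 and 0.455 on day 7. The ratio of Gmnn to Cdt1, inhibitor to target, was 0.95 and 0.694 on day 1, 3.00 and 3.32 on day 4, and 3.58 and 4.42 on day 7. Geminin RNA was thus below Cdt1 RNA in both day 1 libraries and at about 3 times its level or more in every later one. Some pairs kept a ratio that overlapped between days 4 and 1, namely Prim2 to Prim1, Fen1 to Lig1, Ccne2 to Ccne1, Rpa1 to Rpa2 and Tk1 to Tyms.

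Between days 7 and 4 no change of a replication gene was detected. On day 7 none of the 48 genes passed against day 4 in the limma fit, where 0.466% of all tested genes did so (44 higher and 23 lower), and at an unadjusted p under 0.05 only Pold2 did. None passed under any of the 17 alternatives. Log2 changes ran from −0.52 for Pold2 to 0.30 for E2f2, with a median of 0.06, compared with −0.05 for all tested genes. Both day 7 libraries lay above both day 4 libraries for 16 genes, where 18.8% of all tested genes did so, and below them for 7, where 33.9% did so. The other 25 overlapped. By role, the largest positive values were 0.22 for Gmnn, 0.18 for Cdc45, 0.10 for Pola1, 0.20 for Rfc5, 0.13 for Rrm1, 0.29 for Chaf1b and 0.30 for E2f2. The lowest were −0.17 for Orc6, −0.08 for Mcm4, −0.52 for Pold2 (adjusted p = 0.294), −0.18 for Rpa1 and −0.19 for Dut, while chromatin and cyclin genes had none below 0. Chaf1b had 20.7 and 20.2 TPM on day 7, against 16.5 and 16.6 TPM on day 4, a gap larger than the spread within either day that did not pass across all genes (adjusted p = 0.465).

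**Figure D5:**
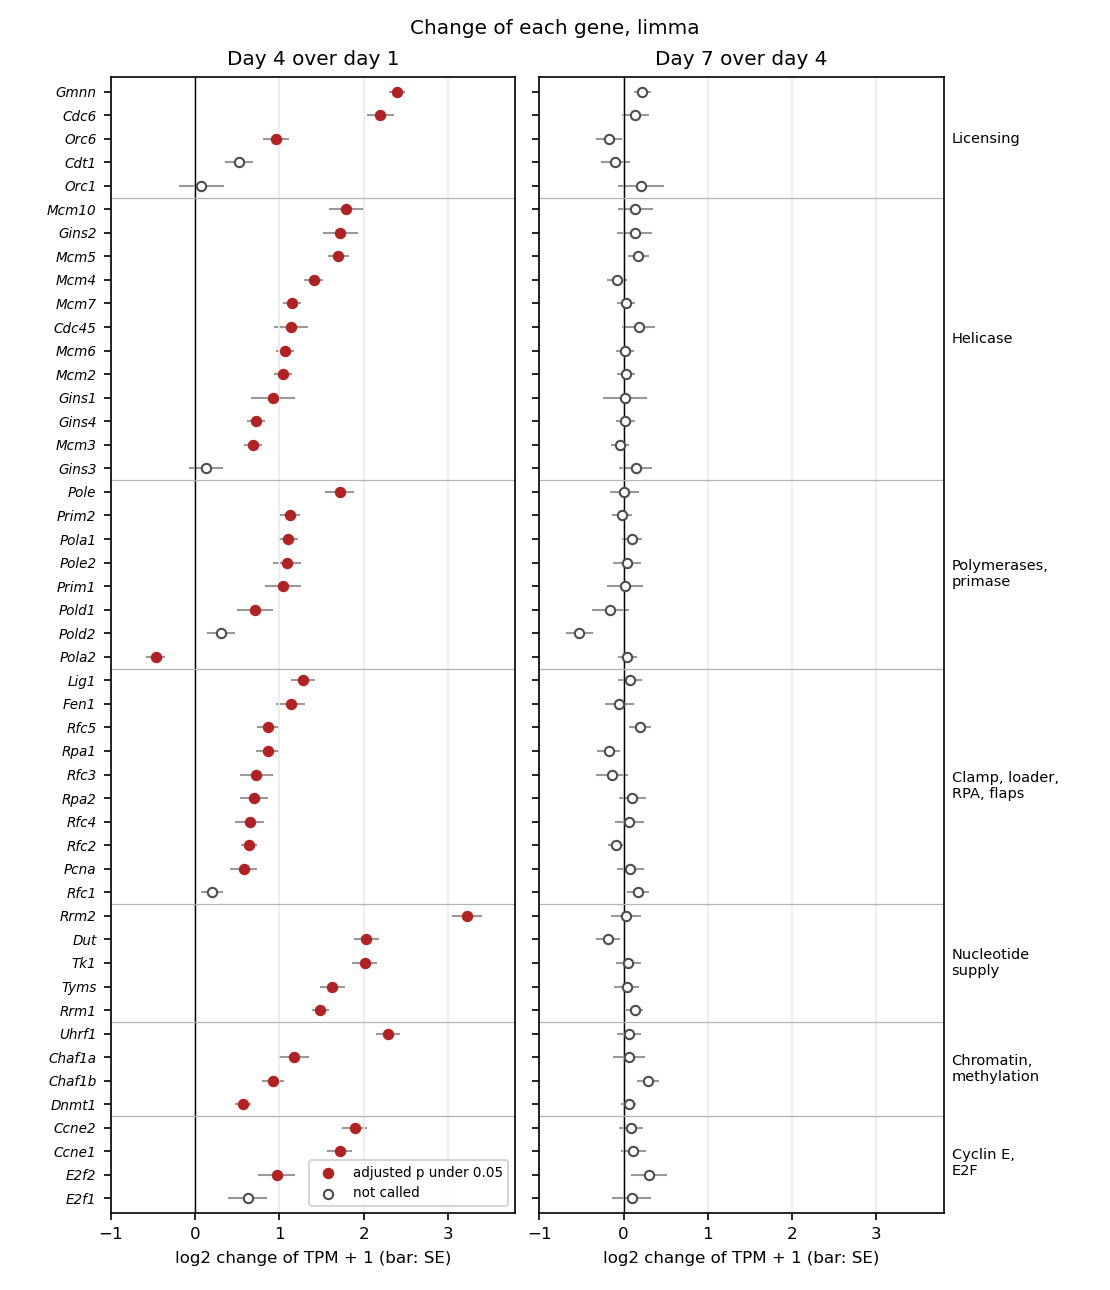
Log2 change of TPM + 1 of each listed gene (x axis, bars: SE from the fit), day 4 over day 1 on the left and day 7 over day 4 on the right, with filled points for an adjusted p under 0.05. On the left the filled points are 41 rises and 1 fall, from −0.47 for Pola2 to 3.23 for Rrm2; on the right none is filled and the values lie between −0.52 and 0.30.

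Against day 1, the replication genes were also mostly higher on day 7, a comparison that shares the day 1 libraries with the first one. On day 7, 40 genes were higher, where 24.7% of all tested genes were, and Pola2 was lower (−0.42, adjusted p = 0.0241), where 16.8% were. The median log2 change was 1.09, compared with 0.04 for all tested genes. Pold1 (0.55, adjusted p = 0.0854) and Rfc3 (0.59, adjusted p = 0.0521) did not pass on day 7, and E2f1 (0.72, adjusted p = 0.0485) did, although the difference between days 7 and 4 passed for none of the 3. The E2f1 call was kept in 4 of the 17 alternatives, and was lost with the shares rebuilt (0.44, adjusted p = 0.235), without any 1 of the libraries of days 4 or 7 (adjusted p between 0.0838 and 0.189) and in the fit that left out day 1 replicate 2 (0.40, adjusted p = 0.0786). The Rfc3 rise passed without day 1 replicate 2 (0.86, adjusted p = 0.00242). With the shares rebuilt, 32 genes were higher, where 15.0% of all tested genes were, and 2 were lower, where 31.7% were, the second being Pold2 (−0.55, adjusted p = 0.0416). The medians were then 0.76 for the 48 genes and −0.29 for all tested genes. Without day 7 replicate 1, the medians as deposited were 1.07 for the 48 genes and 0.04 for all tested genes. Without day 7 replicate 2, they were 1.16 and 0.04. Fewer of the 48 genes, and fewer of all tested genes, passed in both fits. The Pola2 call was lost without any 1 of the libraries of days 4 or 7, with adjusted p between 0.0645 and 0.148.

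Other genes of the replication pathway were listed by function for comparison, here and in the next paragraph. Over all tested genes, 25.0% rose and 11.6% fell on day 4 as deposited, with a median of 0.11. On rebuilt shares 14.1% rose and 23.7% fell, with a median of −0.21. Of 18 further origin and helicase factors, 8 rose and 2 fell on day 4, with a median log2 change of 0.41. Clspn, the mediator that links the fork to checkpoint kinase 1, had 5.69 and 5.86 TPM on day 4, against 0.902 and 0.841 TPM on day 1, a change of 1.86. Wdhd1, which tethers the priming polymerase to the helicase, rose by 1.40, while Orc2, Orc3, Orc4 and Orc5 had changes between −0.07 and 0.09 and did not pass. Both subunits of the kinase that fires origins rose, Dbf4 by 0.81 and Cdc7 by 0.70. Timeless and Mcm9 fell, by 0.76 and 0.67 on the log2 scale. After rebuilding, 5 of this list rose and 4 fell (median 0.17), the Cdc7 rise no longer passed (0.43, adjusted p = 0.119), and Orc3 was among the falls (−0.41, adjusted p = 0.0159).

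Of 18 further polymerase, clamp loader and flap factors, 9 rose and 1, Pold3, fell, with a median of 0.51. Pclaf, a small protein that binds Pcna, had 2.35 and 2.71 TPM on day 1, 31.0 and 31.1 TPM on day 4, and 38.4 and 31.6 TPM on day 7, a day 4 change of 3.19 (SE 0.14, adjusted p = 5.21e-05). Its rise was of the size of that of Rrm2, although its partner Pcna rose by 0.57. Rpa3, the smallest single-strand binding subunit, rose by 1.17. Among 11 further chromatin factors, 6 rose and none fell (median 0.41), led by the histone chaperone Asf1b (2.01) and the remodelling ATPase Hells (1.49). Among 22 further regulators of G1 and S phase, 10 rose and 1, the repressive E2f4, fell (median 0.35). Ccna2, the cyclin of S and G2 phase, had 26.6 and 25.1 TPM on day 4, against 1.43 and 1.14 TPM on day 1 (3.56), and Ccnd1, the cyclin D that answers growth factors, had 180.2 TPM in both libraries on day 4, against 39.1 and 35.1 TPM on day 1 (2.25). On rebuilt shares, 7 rose and 2 fell among the polymerase, clamp loader and flap factors (median 0.24), 4 rose and 1 fell among the chromatin factors (0.09), and 8 rose and 5 fell among the regulators of G1 and S phase (0.03). The median of all tested genes was then −0.21, with 14.1% rising and 23.7% falling.

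Mitosis genes are given for their levels beside the replication genes. The median log2 change on day 4 was 1.06 for the 48 replication genes and 2.67 for the 26 listed mitosis genes, all of which rose, and the difference was not tested. The mitosis genes summed to 50.4 and 50.9 TPM on day 1, 520.1 and 535 TPM on day 4, and 577 and 594 TPM on day 7. After rebuilding, 25 of the 26 rose, and the day 1 sums were 61.0 and 68.9 TPM. The sums of the replication genes, given above, lay closer together across the days. Mki67, the proliferation antigen, had 21.1 and 21.2 TPM on day 4, against 1.15 and 1.40 TPM on day 1.

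Markers of several cell types differed between day 4 and day 1 beside the replication genes. Over all tested genes, 25.0% rose and 11.6% fell as deposited, and 14.1% rose and 23.7% fell on rebuilt shares. Of 14 stellate markers tested, 9 rose and none fell, while Hgf, Ecm1, Colec11, Rgs5 and Lhx2 did not pass. Of 16 macrophage markers, 11 rose and 1 fell. On rebuilt shares, 7 stellate markers rose and 1 fell, and 10 macrophage markers rose and 3 fell. Endothelial markers summed to 1573 and 1727 TPM on day 1, 1877 and 1815 TPM on day 4, and 1726 and 1735 TPM on day 7, and 5 of 12 rose and 2 fell on day 4. Rebuilding turned that order, with 1904 and 2339 TPM on day 1, 1878 and 1817 TPM on day 4, and 4 rises and 4 falls, so the direction of the endothelial sum depends on the satellite-like models. Mesothelial markers summed to 26.9 and 23.3, 76.0 and 70.4, and 124 and 94.0 TPM on days 1, 4 and 7, and 7 of 9 rose on day 4. Hepatocyte markers summed to 89.8 and 72.0, 39.8 and 40.9, and 38.2 and 38.0 TPM, and 7 of the 8 tested fell on day 4. T, NK and B cell markers summed to 48.9 and 45.8, 27.6 and 26.1, and 14.8 and 13.7 TPM on the same days, and of the 8 tested 1 rose and 2 fell on day 4. After rebuilding, the day 1 sums were 32.6 and 31.5 TPM for mesothelial, 109 and 97.5 TPM for hepatocyte, and 59.1 and 62.0 TPM for T, NK and B cell markers, which leaves the order of days 4 and 1 as it was. Then 6 mesothelial markers rose, 7 of 9 hepatocyte markers fell, and among 9 T, NK and B cell markers 1 rose and 2 fell. No listed marker was at 0 in all 6 libraries. The part of these cell types in the replication gene changes was not tested.

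Further limits concern genes that share sequence. Exon bases shared with a gene on the opposite strand came to 17.4% for Ccne2 (Ints8), 15.1% for Rfc2 (Lat2), 12.7% for Rfc4 (Eif4a2), 10.8% for Orc1 (Gm12743) and 10.7% for Rfc5 (Wsb2), and Pole2 shares 8.50% with Gm49384 on its own strand. Lat2, which overlaps Rfc2, had 4.31 and 7.62 TPM on day 1, 8.78 and 11.2 TPM on day 4, and 42.2 and 41.5 TPM on day 7. Rfc2 lay above 36 TPM on days 1 and 4 and had 52.7 and 56.9 TPM on day 7. Eif4a2 had 288 and 223 TPM on day 1 and 287 and 265 TPM on day 4, far above Rfc4. Wsb2 (79.2 and 81.8, then 111 and 102 TPM) lay above Rfc5, and Ints8 (19.6 and 20.6, then 20.5 and 21.0 TPM) above Ccne2. The use of strand is not given, so the levels of these listed genes are uncertain. The pseudogene Tyms-ps was at most 0.250 TPM in any library.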

How the data were processed

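Total RNA of 6 libraries was sequenced after removal of ribosomal RNA with a stranded kit, per the labels' protocols. The authors deposited TPM, 1 value for each symbol in each library. HISAT2 2.0.5, StringTie 1.3.3b and Trimmomatic are named in the submitters' processing notes, with the builds mm10 and GRCm38. What each tool did, the annotation, strand use and summing to genes were not given in the sources used here. The labels name no batch, so no value within a batch could be given.

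The 48 genes and the lists set beside them were chosen with earlier results of these data known. The 14373 genes that reached 1 TPM in 2 or more libraries were tested on log2(TPM + 1), which understates changes of low genes, with day as a factor and all 6 libraries in 1 fit (3 residual degrees of freedom), in limma 3.58.1 (R 4.3.3) with trended, robust moderation. P-values were two-sided and adjusted by Benjamini-Hochberg over all tested genes, and genes under 0.05 were called. The fit was tested on simulated data. Gene coordinates and exon overlaps come from GENCODE release M21 on GRCm38 and promoter windows from RefSeq on GRCm38.p6.

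Named genes are, per role, the 2 with the largest absolute day 4 over day 1 change and the one with the highest mean TPM, those with the highest and lowest day 7 over day 4 change, and 2 per further list; others are named where a count is small or a ratio turns on them. Alternatives were pseudocounts of 0.1 and 0.5, no filter, a filter at 5 TPM, median-ratio and quantile scaling, shares rebuilt without the satellite-like models (those sharing at least 10% of their 20-base words with Gm10800), an untrended variance, library weights, only the days compared, a replicate block, each library left out, and a log2 change of at least 1. The deposited glycolysis list and gene type sheet were not used here.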

Additional observations from a re-analysis of the deposited data

How the results depend on the processing

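Under the alternatives that left out no single library, the 48 genes gave 32 to 41 rises for day 4 over day 1 and 32 to 40 for day 7 over day 1. Over all tested genes, the same settings gave 2067 to 3594 and 2194 to 3552 rises, with 10902 to 25158 genes tested. Fewer of the 48 genes than in the main fit rose without a day 4 library, or for day 7 over day 1 without a day 7 library. For day 7 over day 4 none rose under any of the 17 alternatives that refit the data. Between 0 and 1 gene fell for day 4 over day 1 when a library was left out, and likewise 0 to 1 for day 7 over day 1. The fall for day 7 over day 1 also went to 0 with library weights and with only the days compared, and to 2 with the shares rebuilt. A log2 change of at least 1 left 26 rises and 0 falls on day 4 over day 1 and 0 falls on day 7 over day 1, with 2296 and 2689 calls over all genes. Over all genes, leaving out a library gave 2221 to 7405 calls for day 4 over day 1, 2786 to 7752 for day 7 over day 1, and 0 to 642 for day 7 over day 4. That last comparison had 67 calls as reported, 4 with no filter, 37 after quantile normalization, 885 with library weights, 609 with only the days compared and 31 with the replicate block. The cause of these moves was not tested. For day 7 over day 4, the genes with an unadjusted p under 0.05 numbered 1705.

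The replicate numbers are shared by days 4 and 7 alone as 1 and 2, and the differences between replicates 1 and 2 of those days did not correlate across genes (r = 0.00423), so the numbers are not shown to pair libraries. Number 3 belongs to day 1 replicate 3 alone. A replicate block therefore fits that library exactly, and day 1 then rests on replicate 2. Against day 1, the block is thus not separate from the fit without day 1 replicate 3, and cannot show pairing. With the replicate block, 37 of the 48 genes rose and 1 fell for day 4 over day 1, with 3999 calls over all genes, where Cdt1 and E2f1 passed and E2f2, Gins1, Pold1, Rfc3, Rfc4 and Rpa2 no longer did (Gins1 at 0.44, adjusted p = 0.0814). For day 7 over day 1 the block also gave 37 rises.

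Some genes that were not called changed sign. For day 4 over day 1, Orc1 was at −0.099 and Gins3 at −0.088 after quantile normalization, and with the shares rebuilt Orc1 was at −0.20, Gins3 at −0.18, Pold2 at −0.025 and Rfc1 at −0.15. With a library left out, log2 changes of day 4 over day 1 ran from −0.17 to 0.31 for Orc1 and −0.039 to 0.29 for Gins3. For day 7 over day 1, Gins3 was at −0.033 with the shares rebuilt. For day 7 over day 4, Mcm3, Prim2 and Fen1 were at 0.036, 0.049 and 0.023 with median-ratio scaling and at 0.020, 0.044 and 0.0095 after quantile normalization. With a library left out, log2 changes of day 7 over day 4 ran from −0.032 to 0.45 for Orc1, −0.23 to 0.036 for Cdt1, −0.056 to 0.092 for Mcm6, −0.047 to 0.10 for Mcm7, −0.089 to 0.13 for Gins1, −0.086 to 0.35 for Gins2, −0.024 to 0.31 for Gins3, −0.010 to 0.055 for Gins4, −0.032 to 0.13 for Pola2, −0.051 to 0.085 for Prim1 and −0.076 to 0.032 for Prim2. They ran from −0.45 to 0.14 for Pold1, −0.12 to 0.14 for Pole, −0.053 to 0.13 for Pole2, −0.14 to 0.28 for Rfc4, −0.0083 to 0.21 for Rpa2, −0.0066 to 0.061 for Rrm2, −0.035 to 0.14 for Tk1, −0.17 to 0.24 for Tyms, −0.070 to 0.20 for Chaf1a and −0.024 to 0.16 for Uhrf1. None of these values passed. Depth is unknown, so what it limits cannot be given.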
